A study of Owenia fusiformis with 9 samples.

Results

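Transcripts shared by both gonads of adult *Owenia fusiformis*, an annelid worm, were defined from their levels in the ovary and the testis, and 9 of the 31911 listed transcripts met the definition. RNA-seq had been run on 9 adult tissues or body regions with 1 library each, so no value has a replicate, no difference between tissues was tested, and intervals given here cover counting error only. The ovary, gut and body wall libraries are labelled female, and the testis, blood vessel, retractor muscle and head plus chaetae libraries male, chaetae being the bristles of an annelid. Head and tail came from 5 pooled females, and the other libraries each from 1 worm, where the ovary and gut were dissected from 1 female and the testis, blood vessel and chaetae sample from 1 male. The dissection notes name only muscle for either worm, so the worm of the body wall and of the retractor muscle was taken from the sex in their labels. No treatment was given, worms were kept in artificial sea water with mud and algae, and their age beyond adult was not given in the sources used here. Gonad and worm are therefore confounded, and a gonad sample cannot be told apart from the animal it came from.

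An animal gonad holds germ cells together with somatic cells that surround and nourish them. Germ cells of either sex first divide by mitosis and then enter meiosis, in which homologous chromosomes pair and recombine, and in many animals they also keep a small-RNA pathway that silences transposons. Afterwards the paths part, since the oocyte stores yolk, RNA and organelles for the embryo while the sperm cell compacts its nucleus and builds a flagellum. None of the 31911 identifiers could be paired with a gene name, because 0 of them were found among the 27038 genes of the reference gene table of this species. The listed germ line, oocyte, sperm and muscle markers could thus not be looked up, with 0 matched, and neither the gonad labels nor the retractor muscle label was checked against marker genes. The members are described by identifier, without roles, positions or sequences.

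A member had a normalized read count of at least 100 in the lower of the 2 gonads, a lower gonad count at least 3 times the highest of 6 other tissues (head, head plus chaetae, gut, blood vessel, body wall and tail), and gonads less than 5-fold apart. A constant of 10 was added to every count before the ratios. The normalized read count is the number of reads of a transcript divided by a size factor of its library. These values chose the members, so the contrast of the gonads with the 6 tissues is a description. The retractor muscle was not read by the rule. At least 100 was reached in both gonads by 5798 transcripts, and over these the median ratio of the lower gonad to the highest of the 6 tissues was 0.436. In most of the 5798 the highest of the 6 tissues was thus above the lower gonad. The lower gonad was level or higher in 604 of the 5798, or 10.4%. This ratio sets the lower of 2 values against the highest of 6, which by itself favours a low ratio. The higher gonad was not compared in it. Only 55 of the 5798 reached a ratio of 2 and 20 a ratio of 3. Of these 20, 11 had gonads at least 5-fold apart and 9 remained, which is 0.155% of the 5798. The number 200 allowed by the rule was not approached, and all 9 transcripts come from different genes.

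The 9 libraries held between about 14608988 and 22177997 reads, recovered from the spacing of the low values. One read was worth 5.53 in the testis and 2.75 in the retractor muscle, against 0.595 to 0.948 in the other 7 libraries. A normalized count of 100 therefore rests on about 18.1 reads in the testis but on about 145.9 in the ovary. Among the members the smallest number of reads was 27 in the testis and 202 in the ovary. Transcript length was not used, so counts are compared between tissues for 1 transcript and not between transcripts.

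**Figure D1:**
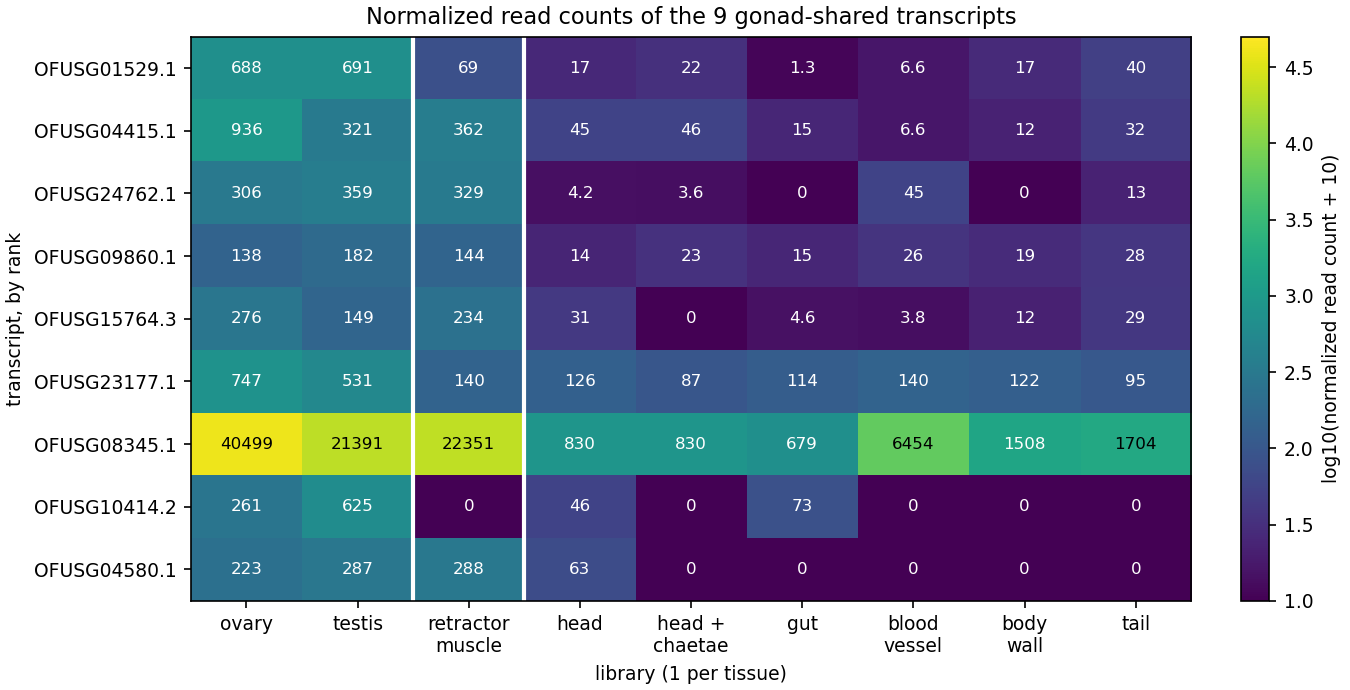
Normalized read counts of the 9 members (rows, by rank) in the 9 libraries (columns), printed in each cell and coloured by log10 of the count plus 10. The gonads stand at the left, the retractor muscle between the white lines and the 6 tissues of the rule at the right. OFUSG10414.2 is the only member at 0 in the retractor muscle.

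OFUSG01529.1 ranked first. Its normalized count was 688 in the ovary and 691 in the testis, and 68.8 in the retractor muscle. The tail had 40.2, the head plus chaetae 22.2, the body wall 17.3, the head 16.8, the blood vessel 6.63 and the gut 1.33. The gonads were thus level with each other, with a testis to ovary ratio of 1.00 and a 95% exact counting interval of 0.826 to 1.21. The ovary was 17.1 times the tail, the next of the 6 tissues (interval 13.1 to 22.9), and the ratio of the rule was 13.9, more than double that of any other member. Its gene has 1 listed transcript.

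OFUSG04415.1 ranked second with a rule ratio of 5.95 and leaned to the ovary. Its counts were 936 in the ovary, 321 in the testis and 362 in the retractor muscle. The head plus chaetae had 45.6, the head 44.9, the tail 32.2, the gut 14.6, the body wall 12.5 and the blood vessel 6.64. The testis had 0.342 times the ovary count (interval 0.259 to 0.446), the lowest of the 9, and the testis value rests on 58 reads.

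OFUSG24762.1 had 306 in the ovary, 359 in the testis and 329 in the retractor muscle, which did not differ beyond counting error. Among the 6 tissues the blood vessel had 45.4, the tail 12.9, the head 4.19 and the head plus chaetae 3.60, and it was listed at 0 in the gut and the body wall. By counting error a count of 0 was taken to allow up to 3 reads, or 1.99 in the gut and 1.79 in the body wall, which were dissected from females. The ovary was 153.7 times this value of the gut and 171 times that of the body wall. These figures do not cover reads given to OFUSG24762.2, a transcript of the same gene with 779.9 in the gut and 673 in the body wall. The rule ratio of OFUSG24762.1 was 5.70.

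OFUSG09860.1 was the member with the smallest ovary count, 138, beside 182 in the testis and 144 in the retractor muscle. These levels rest on 202, 33 and 52 reads, and the interval of each ratio between them includes 1. In the 6 tissues it stayed between 14.4 in the head and 28.0 in the tail, with the head plus chaetae at 23.4, the blood vessel at 26.5, the body wall at 19.0 and the gut at 15.2. OFUSG15764.3 had the smallest testis count, 149, from 27 reads, with 276 in the ovary and 234 in the retractor muscle. Among the 6 tissues the head had 31.1, the tail 29.4, the body wall 11.9, the gut 4.64 and the blood vessel 3.79, and the head plus chaetae was listed at 0. The testis to head ratio was 4.79, with an interval of 2.90 to 7.78 that reaches below 3.

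OFUSG23177.1 was the most broadly found member. It had 747 in the ovary and 531 in the testis, while the blood vessel had 140.3, the head 126, the body wall 122, the gut 114, the tail 94.6 and the head plus chaetae 87.0. The retractor muscle had 140.02. A steady level in 7 tissues and a higher one in the gonads sets it apart from members that were at or near 0 elsewhere. OFUSG08345.1 had by far the most reads, with 40499 in the ovary, 21391 in the testis and 22351 in the retractor muscle, from 59100, 3870 and 8130 reads. It was not low elsewhere, as the blood vessel had 6454, the tail 1704, the body wall 1508, the head plus chaetae 830.3, the head 829.9 and the gut 679. Its ratio of testis to blood vessel was 3.31, with an interval of 3.19 to 3.45.

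OFUSG10414.2 leaned most to the testis, with 625 there and 261 in the ovary, a ratio of 2.39 (interval 1.92 to 2.95). The gut had 72.8 and the head 45.5, and the retractor muscle, head plus chaetae, blood vessel, body wall and tail were listed at 0. OFUSG04580.1 ranked last, with 223 in the ovary, 287 in the testis and 288 in the retractor muscle. The head had 62.8, and the transcript was listed at 0 in the other 5 of the 6 tissues. Both of these belong to genes with 3 listed transcripts, and a value of 0 in 1 transcript can go with reads given to another transcript of the gene.

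On the deposited scale the members did not lean 1 way between the gonads. The testis was higher in 5 and the ovary in 4, the median of testis over ovary was 1.00, and 7 of the 9 were within 2-fold. The testis was above the ovary in 5 members with the upper quartile as scale as well, but in 0 of 9 with a common library sum and in 0 of 9 with a common sum that leaves out transcripts above 1% of any library, where the median was -1.28 on the log2 scale. The rule holds the gonads within 5-fold, so this closeness is partly its own. On the deposited scale the 5798 transcripts with both gonads at 100 or more had a median of -0.06 on the log2 scale, against 0.01 for the members. A median near level is thus no mark of the members. The share of the 5798 within 2-fold was not counted. The interval of the testis to ovary ratio included 1 for OFUSG01529.1, OFUSG24762.1, OFUSG09860.1 and OFUSG04580.1. The next tissue after the gonads was not the same for all. Of the 6 tissues the blood vessel was highest for 3 members, the head for 2, the tail for 2, the gut for 1 and the head plus chaetae for 1. The ratio of the lower gonad to that tissue had a lower counting bound above 3 for 5 members and above 1 for all 9. The rule chose members by this ratio on the deposited scale, so the bounds describe counting error and do not bear out the contrast.

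At the limit of the rule, the last members inside were OFUSG10414.2 at a ratio of 3.28 and OFUSG04580.1 at 3.19. The first outside were OFUSG17693.1 at 2.98, with 2946 in the ovary, 3792 in the testis and up to 982 in the 6 tissues, and OFUSG10414.1 at 2.78, another transcript of a member's gene. Of the 11 transcripts left out because the gonads were far apart, 10 were higher in the testis and 1, OFUSG01714.1, in the ovary. In 9 of the 11 the testis count lay between 246309 and 3484430. The ovary had between 226 and 4732 of the same transcripts, which was 0.0509% to 0.345% of the testis count, while the highest of the 6 tissues reached at most 83.5. The retractor muscle had between 103283 and 764471 of them.

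To place the number of members, the rule was applied to each of the 28 pairs that can be made of the ovary, the testis and the 6 tissues, each time against the remaining 6. The median was 16 transcripts per pair. Ovary and testis, with 9, came after 19 pairs and before 8. The ovary shared 351 transcripts with the blood vessel, the most of any pair, 17 with the head, 15 with the gut, 11 each with body wall and head plus chaetae, and 2 with the tail. The testis shared 53 with the gut, 31 with the blood vessel, 25 with the head plus chaetae, 10 with the head, 4 with the tail and 2 with the body wall. Counted for 1 gonad alone, 870 transcripts reached 100 and 3 times the 6 tissues in the testis and 484 in the ovary. The 20 common to both lists were 2.30% of the testis list and 4.13% of the ovary list. Over all 31911 listed transcripts, 870 were on the testis list and 484 on the ovary list. Both lists are thus a small part of all transcripts, so low percentages alone do not show that the gonads share few. Since each pair rests on 2 libraries, the order of pairs has no replicate. The number of transcripts with both tissues at 100 or more ran from 5502 to 8323 between pairs. It was 5798 for ovary and testis, and smaller in 3 pairs. Pairs and lists were counted on the deposited scale only, where 1 read is worth the most in the testis. On a common library sum the count for ovary and testis was 0, so the order of pairs may turn on the scale.

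**Figure D2:**
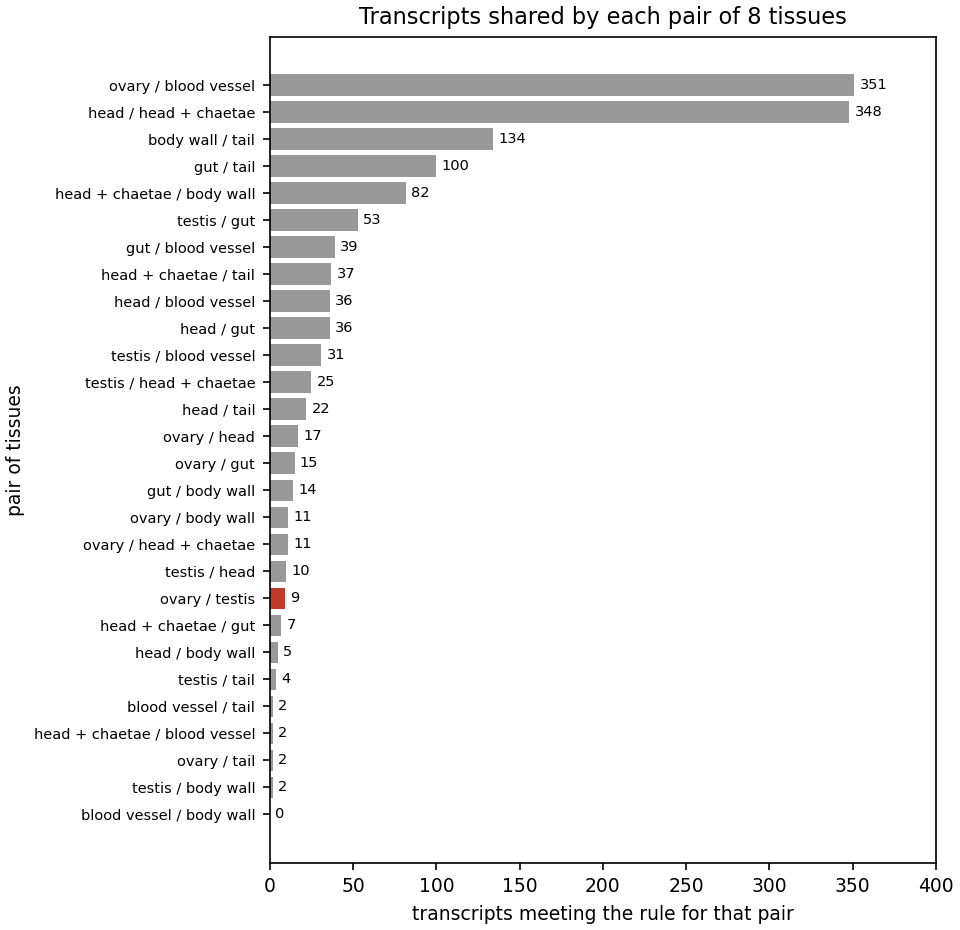
Number of transcripts meeting the rule (horizontal axis) for each of the 28 pairs of tissues (vertical axis), with the ovary and testis pair in red. On the deposited scale ovary and testis share 9, against 351 for ovary and blood vessel and a median of 16.

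The blood vessel held back more transcripts from the gonad set than any other single tissue. Left out of the comparison, it let 29 more transcripts pass, while the tail let 4, the gut 3, the body wall 3, and the head and head plus chaetae 0. Over these 29 the medians were 688 in the ovary, 685 in the testis, 777 in the blood vessel and 215 in the retractor muscle. The blood vessel and the testis were dissected from the same male and the ovary from a female, and a part of the worm in these levels was not tested.

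The retractor muscle, the tissue the rule did not read, had the members at gonad levels in most cases. In 6 of 9 members it was at least 3 times the highest of the 6 tissues (each plus 10). These were OFUSG04415.1 at 6.70, OFUSG24762.1 at 6.11, OFUSG15764.3 at 5.93, OFUSG04580.1 at 4.10, OFUSG09860.1 at 4.04 and OFUSG08345.1 at 3.46. In the same 6 it also reached the lower of the gonads, and in OFUSG04580.1 it was above both by less than the counting error against the testis (ratio 1.00, interval 0.714 to 1.43). The counts of the retractor muscle differed from those of the testis beyond counting error in OFUSG15764.3 and OFUSG08345.1, but there by ratios of only 1.57 (interval 1.01 to 2.51) and 1.04 (interval 1.01 to 1.09).

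The other 3 members were low in the retractor muscle. OFUSG01529.1 had 68.8 there, 1.57 times the highest of the 6 tissues on the scale with 10 added, and 0.0995 times the testis (interval 0.0620 to 0.154). OFUSG23177.1 had 140.02, level with the blood vessel and 0.264 times the testis (interval 0.184 to 0.375). OFUSG10414.2 was listed at 0, and the testis was 75.7 times the value of 3 reads in the retractor muscle. This figure does not cover reads given to OFUSG10414.1, a transcript of the same gene with 1044 there.

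Against other transcripts the share of 6 in 9 needs its background. Over all 31295 transcripts above 0 in any library, 2.4% had the retractor muscle at 3 times the 6 tissues or more, and over the 5798 with both gonads at 100 or more 1.52% did. Members were chosen to be low in the 6 tissues, which lowers the denominator of this ratio, so these 2 shares are not a like comparison. Among the 850 transcripts that reached 3 times the 6 tissues in the testis and not in the ovary, 48.2% also did so in the retractor muscle, and among the 464 that did so in the ovary and not in the testis, 2.16%. On the deposited scale the 6 of 9 thus stood nearer to the transcripts of the testis alone than to those of the ovary alone. With 9 members nothing finer can be read from it. These shares were counted on that scale only, where the same share of a library appears larger in both the testis and the retractor muscle. With a common library sum, 0 of the 9 members had the retractor muscle at 3 times the 6 tissues. A retractor muscle count within 5-fold of the testis was found in 7 of the 9 members, against 92.8% of the 5798, and is no mark of the members. Testis and retractor muscle come from males and hold many transcripts in common, such as the 9 with far apart gonads above, and the part of this in the retractor muscle levels of the members was not tested.

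**Figure D3:**
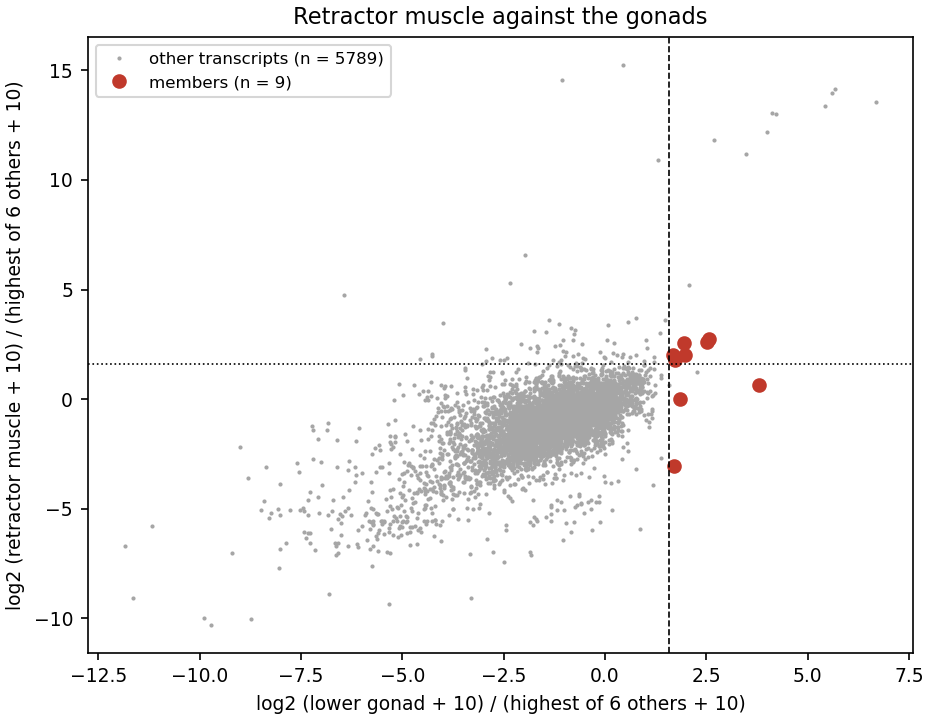
Ratio of the retractor muscle (vertical axis) and of the lower gonad (horizontal axis) to the highest of the 6 tissues, both as log2 with 10 added, for the 5798 transcripts with both gonads at 100 or more. The dashed and dotted lines mark 3-fold, and 6 of the 9 members (red) lie above the dotted line.

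Some members marked a transcript rather than a gene. Alternative transcripts of 1 gene differ in promoter, splicing or end, and the pseudo-alignment shares out reads that fit several of them, so these values are less certain than those of genes with 1 transcript. Of the 9 members, 5 belong to genes with more than 1 listed transcript, against 26.9% of all transcripts and 18.0% of those with both gonads at 100 or more. When the transcripts of each gene were summed, only 5 of the 9 genes met the rule. These were the genes of OFUSG01529.1, OFUSG04415.1, OFUSG09860.1, OFUSG23177.1 and OFUSG15764.3.

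In OFUSG04580 the gonads and the retractor muscle had 1 transcript, 5 tissues another, and the head both. OFUSG04580.1 made up 100% of the gene's normalized counts in ovary, testis and retractor muscle, 30.7% in the head and 0% in the other 5 tissues. OFUSG04580.2 was listed at 0 in the gonads and the retractor muscle, while the blood vessel had 407, the tail 186, the head 142, the body wall 136, the head plus chaetae 122 and the gut 120.0. The summed gene was highest in the blood vessel, at 407, and lay at 223 in the ovary and 287 in the testis.

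OFUSG24762 showed a partial form of this. The member took 71.6% of the gene in the ovary, 38.9% in the testis and 60.7% in the retractor muscle. In the blood vessel it had 45.4 of the 454 counts of the gene, and in the other 5 tissues at most 2.59%, in the tail. Its partner OFUSG24762.2 had 121 in the ovary, 564 in the testis and 213 in the retractor muscle, while the 6 tissues ranged from 409 to 779.9. Summed, the gene was higher in the gut, at 779.9, than in the ovary, at 427. In OFUSG08345 the member took 86.3% of the gene in the ovary, 61.9% in the testis, 53.0% in the retractor muscle and 43.0% in the blood vessel, and between 2.99% and 12.7% in the other 5 tissues. OFUSG08345.2 was high in all 9 libraries, from 6410 in the ovary to 22034 in the head. The summed gene had 46909 in the ovary, 34551 in the testis, 42204 in the retractor muscle and 22864 in the head, the highest of the 6.

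OFUSG10414 was spread over 3 transcripts. OFUSG10414.1 had 234 in the ovary, 1188 in the testis and 1044 in the retractor muscle and at most 77.6, in the tail, among the 6 tissues, so the gene as a whole was present in the retractor muscle, at 1115, although the member was listed at 0 there. OFUSG10414.3 was low in the gonads, with 13.0 in the ovary and 0 in the testis, and reached 196 in the head plus chaetae. The summed gene had a rule ratio of 2.29. In OFUSG15764 the gene and the member went the same way. OFUSG15764.3 took 65.7% of the ovary and 67.5% of the testis counts, OFUSG15764.4 was listed above 0 only in these gonads, with 102 and 71.9, and the summed gene had a higher ratio, 5.20, than the member, 3.87.

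**Figure D4:**
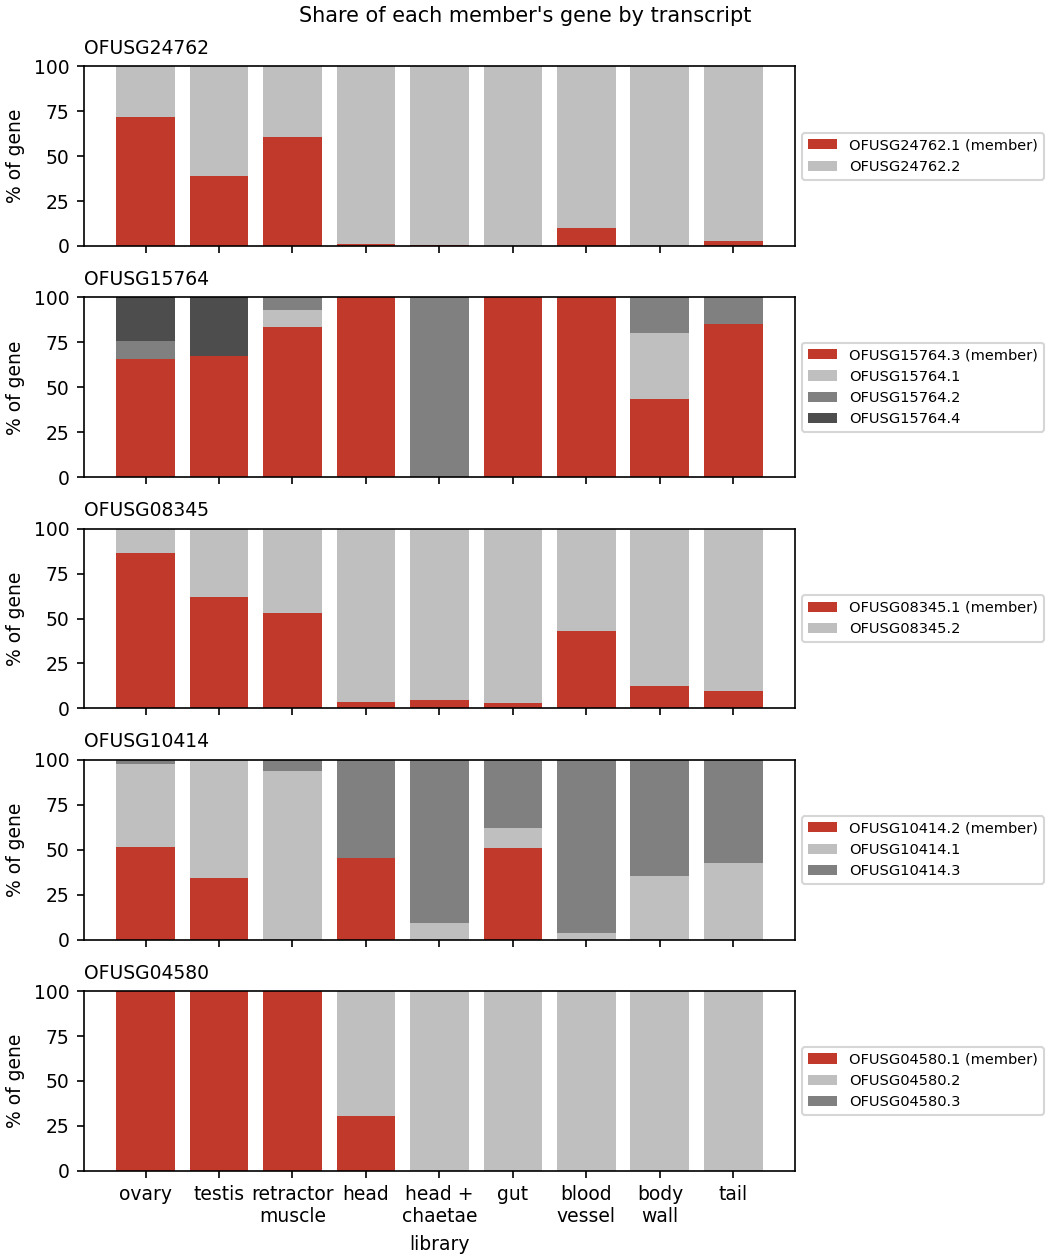
Share of a gene's normalized counts (vertical axis, percent) taken by each of its transcripts in the 9 libraries (horizontal axis), for the 5 members from genes with several transcripts, with the member in red. In OFUSG04580 the member takes 100% in ovary, testis and retractor muscle, 30.7% in the head and 0% in the other 5 tissues.

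The scale of the libraries decides how the testis compares. On the deposited scale the summed counts were 122592193 in the testis and 56451691 in the retractor muscle, against 9938696 to 13848990 in the other 7, so the same share of a library appears larger in the testis. Scaled to a common library sum (as CPM, the share of a transcript in its library), the testis moved by -3.38 and the retractor muscle by -2.26 on the log2 scale, and the other 7 libraries by -0.23 to 0.24. The median of testis over ovary, over the 5798 transcripts with both gonads at 100 or more, then went from -0.06 to -3.08 on the log2 scale, and that of the 9 members from 0.01 to -3.25, so the members moved with the rest. On this scale the testis stayed above the highest of the 6 tissues in 1 member, OFUSG01529.1, with 5.64 CPM against 3.41 in the tail, and no transcript met the rule. The retractor muscle stayed above the highest of the 6 tissues in 4 members and at 3 times in 0.

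With the 30 transcripts above 1% of any library left out of the sums, the testis shifted by -1.30 and the retractor muscle by -0.75, the testis was above the highest of the 6 tissues in all 9 members, and 4 transcripts met the rule, 3 of them members. With the upper quartile of each library as scale, 11 transcripts met the rule, the 9 members among them. The ovary level against the 6 tissues could not turn on these scales, since the rule set it high and the scalings move these libraries little. Against the highest of the 6 tissues, the testis level of 8 members, OFUSG01529.1 excepted, and the retractor muscle level of OFUSG08345.1, OFUSG04580.1 and OFUSG01529.1 changed direction with a common library sum. Together the members made up 0.390% of the ovary library, of which OFUSG08345.1 was the main part, 0.0424% of the retractor muscle and 0.0200% of the testis.

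**Figure D5:**
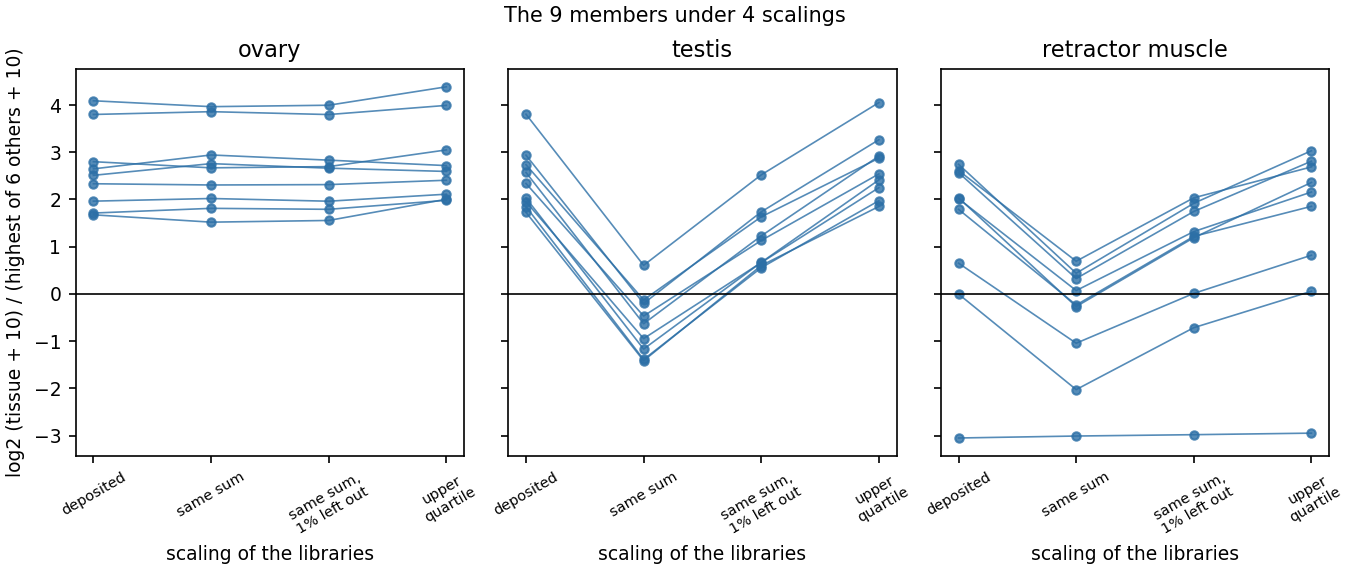
Ratio of the ovary, testis and retractor muscle (panels) to the highest of the 6 tissues (vertical axis, log2 with 10 added) for the 9 members under the deposited scale, a common library sum, a common sum without transcripts above 1% of any library, and the upper quartile (horizontal axis). With the common sum, 1 of the 9 testis lines stays above 0.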

How the data were processed

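Total RNA of 9 adult tissues was sequenced on a BGISEQ-500 platform. According to the methods, the authors trimmed reads with trimmomatic and pseudo-aligned them with kallisto to their gene models. The authors deposited a signal for each transcript in each library, its reads divided by a DESeq2 size factor. The authors' processing notes name kallisto 0.44.0 and DESeq2 1.34.0 in R 4.1.2. The methods of the paper give other versions of kallisto and DESeq2, and which were used for the deposited values is not settled here. The step between kallisto and normalization is not described in the sources, and a further factor per transcript, such as a length correction, is possible. The genome build is not used here.

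All members were found by the rule, ranked by ratio with ties by identifier. The members, marker lists and tests were chosen with earlier results of these data known. The value of 1 read was the least-squares step of values up to 20 reads, and 93.1% (retractor muscle) to 100% (testis) of those lay within 0.1 read of a whole number, so reads are approximate. Ratio intervals are exact 95% (Clopper-Pearson) intervals from these reads. With 1 library per tissue no test was made. By the naming rule, the members first by rank, largest in the lower gonad, highest and lowest in the retractor muscle and in testis over ovary, and those beside the limit were named. OFUSG15764.3, the remaining member, OFUSG01714.1 and the partner transcripts were named after their values were seen. Gene sums and other constants, minima, folds, limits, scalings and tissues in the criterion were tried, and the scalings with members held were chosen after seeing the data. The rule was run on simulated data with planted transcripts well inside its limits, which checks the code only and says nothing on the members. Python 3.11.15, numpy 2.4.6, pandas 2.3.3, scipy 1.17.1 and matplotlib 3.10.9 were used.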

Additional observations from a re-analysis of the deposited data

How the results depend on the processing

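No paired analysis was possible because each tissue has 1 library. The number of transcripts meeting the rule, 9 as reported, was 41 with a fold of 2, 3 with a fold of 5, 20 with no limit between the gonads, 132 against the median of the 6 tissues, 38 without the blood vessel among them, 3 with the retractor muscle added to them, 5 with the transcripts of a gene summed, 4 with a common sum that leaves out transcripts above 1% of any library, and 0 with a common sum. In the other 12 alternatives it stayed within 1.5 times. The number with the retractor muscle at 3 times the 6 tissues, 6 as reported, was 12 of 41 with a fold of 2, 2 of 3 with a fold of 5, 16 of 20 with no limit between the gonads, 14 of 132 against the median, 3 of 5 with genes summed and 2 of 4 with the common sum without transcripts above 1%. Without the blood vessel it was 8 of 38, and without the gut or without the body wall 6 of 12. In these settings the count stayed within 1.5 times, but the share was smaller than 6 of 9. The ratio was taken to the highest of all 6 tissues in each setting, also where a tissue was left out of the rule. Transcripts added that way were high in the tissue left out, which by itself lowers the share. Against the tissues that remained, 9 of the 29 added without the blood vessel reached 3 times. It was 0 of 3 for the gut and 1 of 3 for the body wall. With the 9 members held, a choice made after seeing the data, the number was 0 with a common sum and 3 with the common sum without transcripts above 1%. The median log2 ratio of the retractor muscle to the highest of the 6 tissues, 2.02 as reported, changed sign to -0.94 for the 132 transcripts, to -0.82 for the 38 and to -0.23 with a common sum and members held. The members changed with the setting in the first 2 cases, and the scale alone in the last. In the first 2 cases the highest of all 6 tissues stayed the denominator, which by itself lowers the ratio of the added transcripts. Precision is set by the testis, where 1 read is worth the most.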
